A study of Mus musculus with 6 samples.

Results

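The genes described here are the Pim kinases Pim1, Pim2 and Pim3, the feedback inhibitors Socs1, Socs2, Socs3 and Cish, the transcription factor gene Stat3 and the kinase genes Jak1 and Jak2. They were chosen by symbol, and all 10 were found among the 53090 gene rows, each with a single row. RNA was sequenced from mouse neutrophils isolated from liver (3 libraries) and from blood (3 libraries). All mice had received the DDC diet for 1 week. This diet contains 3,5-diethoxycarbonyl-1,4-dihydrocollidine, which injures bile ducts and provokes a ductular reaction, and there was no group without it. Selection was by magnetic beads against the neutrophil surface protein Ly6G, after a Percoll gradient for liver and after lysis for blood. Tissue and preparation therefore cannot be told apart. Mouse strain, age and sex are not given in the labels, nor whether any animal gave both a liver and a blood sample. The labels do not tie each library to its own mouse, so the p-values reflect only the spread among these libraries, which may be technical. The comparison asks how neutrophils recovered from the injured liver differed from circulating ones.

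Many cytokines act through receptors without enzyme activity of their own. The receptor chains bring JAK kinases together, the JAKs phosphorylate STAT transcription factors, and the STATs turn on target genes. Among those targets are the SOCS and CIS proteins, which bind receptors or JAKs and damp the signal, and the PIM kinases, serine/threonine kinases that are active as soon as they are made and so are controlled largely by the amount of transcript and protein. In neutrophils, granulocyte colony-stimulating factor (G-CSF) acts mainly through STAT3 and is restrained by SOCS3, while GM-CSF acts largely through STAT5.

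In liver neutrophils, Pim1 was 4.83-fold higher and Pim3 was 2.87-fold higher than in blood neutrophils, whereas Socs3 was 2.24-fold lower. Socs2 was seen only in the liver libraries, at a very low level. Stat3 had nearly the same level in both groups, with a mean of 550 ± 78.4 in liver against 592 ± 58.6 in blood (SD, n = 3), in CPM, counts scaled to a common library size after TMM normalisation. Of the 10 genes, 3 were called higher and 1 lower in liver at an adjusted p under 0.05 by edgeR's quasi-likelihood test, and 6 did not pass. Among all 13458 genes tested, 31.6% were called, 17.4% higher and 14.2% lower. The groups did not overlap for 7 of the 10 genes, 5 higher and 2 lower in liver, against 48.5% of all tested genes, 25.8% higher and 22.7% lower. The median log2 fold change of the 10 was 0.93, also with Socs2 at its lower bound, and that of all tested genes was 0.04. Socs2 was tested only because of its liver counts, so the filter favoured a rise in it.

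**Figure D1:**
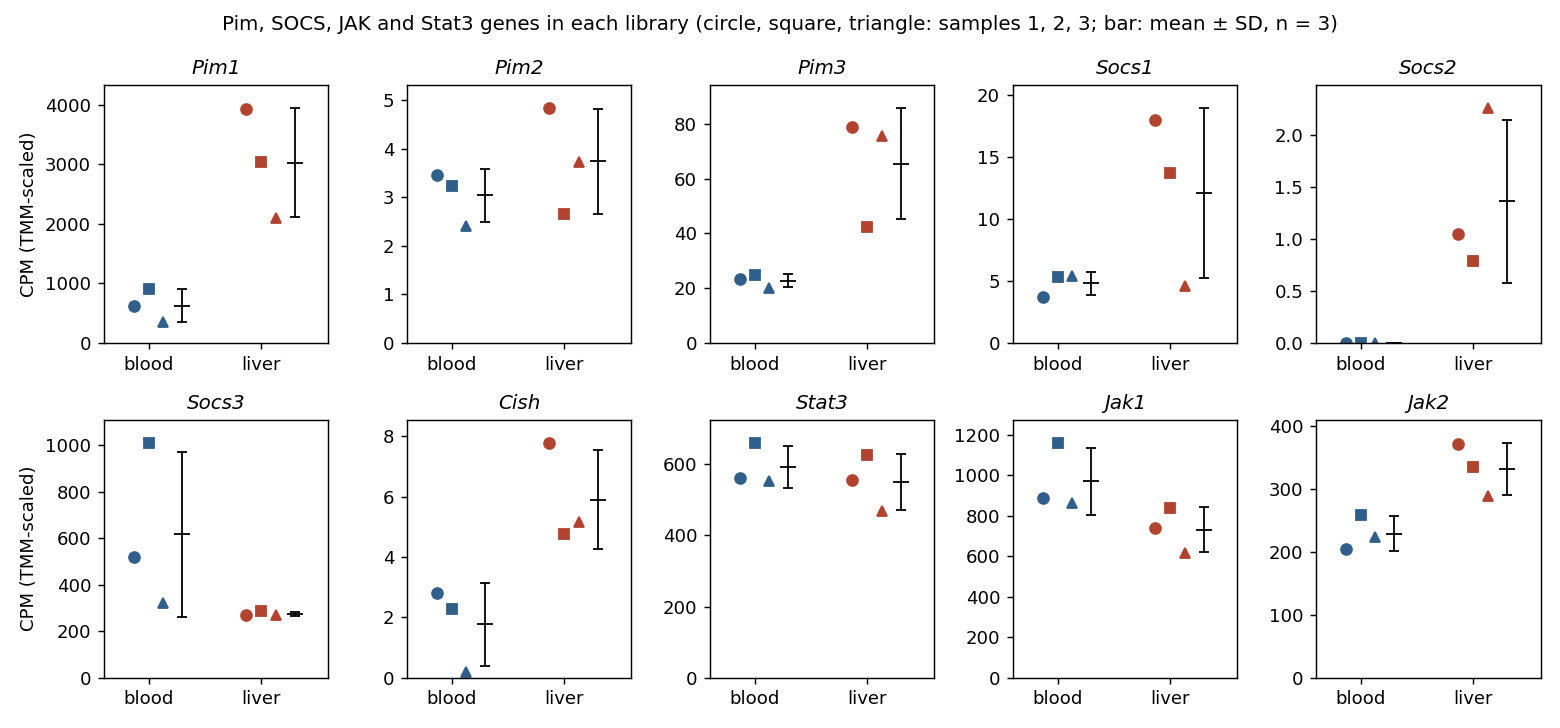
CPM of each of the 10 genes in the 3 blood (blue) and 3 liver (red) libraries, each panel with its own linear axis from 0; black bars are the mean ± SD. Pim1 and Pim3 lie higher in every liver library than in any blood library, Socs3 lies lower in every liver library, and Stat3 overlaps between the groups.

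Libraries held 13054684 to 17579671 counts. Markers of neutrophils were abundant in all of them but lower in liver, summing to 6875 to 12095 CPM over 12 genes in liver and 19608 to 30595 CPM in blood, with 9 of 12 called lower. Ly6g itself had 11.9, 8.79 and 4.50 CPM in liver and 23.6, 45.7 and 21.3 CPM in blood. Markers of several other cell types were higher in liver. Those of monocytes rose in 6 of 7 genes and summed to 800 to 1230 CPM in liver and 72.8 to 149 CPM in blood. Those of hepatocytes rose in 6 of 7 tested genes of 11, at 271 to 496 and 108 to 151 CPM, those of Kupffer cells and macrophages in 5 of 11 tested genes of 12, at 604 to 957 and 369 to 574 CPM, and those of liver endothelium in 4 of 5 tested genes of 8, at 22.7 to 50.6 and 14.9 to 19.1 CPM. No marker on these 5 lists was at 0 throughout a group. Dendritic cell markers were higher in 3 of 7 genes, at 211 to 252 CPM in liver and 125 to 157 CPM in blood. Platelet markers were lower in 3 of 6 tested genes of 7, at 7.83 to 16.6 and 35.0 to 215 CPM. Of the called markers, Alb, Apoa1, Apoa2, Hpx, Ahsg, Clec4f, Vsig4 and Marco were tested only because of their liver counts. The same held for Stab2, Ptprb, Kdr, Cdh5, Xcr1 and Siglech, so the filter favoured a rise in them all. Ppbp, of the platelets, was tested only because of its blood counts. Red cell markers summed to 33698, 14773 and 367 CPM in blood 1, 2 and 3 and to 143 to 2730 CPM in liver. Of the hepatocyte sum, Trf (transferrin) alone gave 254, 175 and 255 CPM in liver 1, 2 and 3, and the other 10 genes gave 16.5, 130 and 241 CPM there and 0.526 to 5.46 CPM in blood, a split made after the values were seen. Of the 2 tested cholangiocyte markers of 6, Spp1 was called higher in liver and Krt7 lower (3.12 against 10.4 CPM, adjusted p = 0.0072). Krt19, Sox9 and Cftr were at 0 in all blood libraries, with only 17, 14 and 2 counts over the liver libraries. The eosinophil genes Prg2 and Epx were at 0 in all 6 libraries. On the same list, Siglecf had 67.3, 216 and 51.8 CPM in liver and 37.4, 96.6 and 40.4 CPM in blood. Neither Siglecf nor Ccr3 (189 liver and 204 blood counts) was called. In such mixed samples, fewer cells of a type and less RNA per cell cannot be told apart. Their part in the results below was not tested.

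To show where STAT proteins could bind, promoter windows from RefSeq (GRCm38.p6), running from 250 bases before to 50 bases after the annotated start, were searched for TTCNNNGAA, the palindromic STAT site, which reads the same on both strands. Windows were found for 9 of the 10 genes, with 10 windows in all since Pim1 had 2, and 2 windows held the site. Over all 32851 windows, 8.30% held it at least 1 time and 0.457% held it 2 or more times. Socs3 had a match starting 154 bases before the start. Cish had 2, starting at the first and at the 12th transcribed base. These starts are RefSeq's. The GENCODE spans given below for both genes begin further upstream, so these matches lie inside them, that of Socs3 between annotated exons and those of Cish within an exon of the longest transcript. The windows of Pim1, Pim2, Pim3, Socs1, Stat3, Jak1 and Jak2 had no match, which says only that these letters are not in those windows. The stretches below are shown because Socs3 and Pim1 are the abundant genes of the group that moved in opposite directions, and Cish is a classical STAT5 target. The letters run 5′ to 3′ on the gene's strand, and capitals mark the motif. The Socs3 stretch is at chr11:117969452-117969616 (minus strand), that of Cish at chr9:107296654-107296683 (plus strand) and that of Pim1 at chr17:29490535-29490752 (plus strand).
Socs3: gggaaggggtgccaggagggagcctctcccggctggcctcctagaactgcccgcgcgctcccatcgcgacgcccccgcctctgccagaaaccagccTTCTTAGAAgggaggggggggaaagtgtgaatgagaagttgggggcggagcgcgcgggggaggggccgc
Cish: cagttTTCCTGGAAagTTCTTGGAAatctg
Pim1: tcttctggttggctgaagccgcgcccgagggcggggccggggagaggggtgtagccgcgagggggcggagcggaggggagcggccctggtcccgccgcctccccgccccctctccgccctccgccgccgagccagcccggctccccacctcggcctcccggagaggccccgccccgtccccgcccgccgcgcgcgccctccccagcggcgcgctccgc
The 250 bases before the Pim1 start of this window were 82.4% G or C, those before the Socs3 start 71.6% and those before the Cish start 55.2%.

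Levels of different genes were set side by side as CPM per kilobase of merged exons. In liver, Pim1 came first at 900 ± 272 CPM per kilobase, followed by Jak1 at 101 ± 15.4, Socs3 at 95.03 ± 3.08, Jak2 at 65.8 ± 8.18 and Stat3 at 57.8 ± 8.23 (SD, n = 3). Jak1 and Socs3 did not differ beyond their ranges, nor did Jak2 and Stat3. In blood, Socs3 came first at 213 ± 122 CPM per kilobase, then Pim1 at 186 ± 83.3, Jak1 at 134 ± 22.7, Stat3 at 62.2 ± 6.15 and Jak2 at 45.4 ± 5.49. The ranges of Socs3, Pim1 and Jak1 overlapped from each to the next, while Stat3 lay below Jak1 and Jak2 below Stat3 in every library. The remaining genes were far lower in both groups, from 26.9 CPM per kilobase for Pim3 in liver down to 0 for Socs2 in blood. With the longest coding transcript as the length, chosen after seeing the data, Stat3 at 91.1 moved ahead of Jak2 at 65.8 in liver and Cish ahead of Pim2.

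Jak1 and Jak2 encode the receptor-bound kinases at the head of the pathway, JAK1 being used by the gp130 and interferon receptors and JAK2 by the GM-CSF, interleukin 3 and erythropoietin receptors. Jak1, on chromosome 4 from 101152367 to 101265282 (GRCm38), had 741, 836 and 614 CPM in liver 1, 2 and 3 and 886, 1159 and 866 CPM in blood 1, 2 and 3. Every liver library was below every blood library, but the log2 fold change of -0.41 did not pass the test (adjusted p = 0.19, 95% interval -0.91 to 0.09). Jak2, on chromosome 19 from 29251828 to 29313080, went the other way, with 371, 334 and 289 CPM in liver and 204, 258 and 223 CPM in blood. All liver values lay above the blood values, and the log2 fold change of 0.54 narrowly missed the threshold (adjusted p = 0.057, 95% interval 0.11 to 0.96). Within each library, the log2 ratio of Jak1 over Jak2 was 1.00, 1.32 and 1.09 in liver and 2.12, 2.17 and 1.96 in blood. The JAK1 to JAK2 transcript balance was thus lower in all 3 liver libraries, by 0.94 on the log2 scale (exact permutation test, two-sided, p = 0.10, the smallest that 3 against 3 libraries allow, and 0.13 adjusted over 8 ratios).

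Stat3, on chromosome 11 from 100885098 to 100939540, encodes the main STAT protein downstream of G-CSF, interleukin 6 and interleukin 10. It had 556, 626 and 469 CPM in liver and 563, 660 and 554 CPM in blood. The groups overlapped, the log2 fold change was -0.11 (adjusted p = 0.72), and its 95% interval ran from -0.56 to 0.35, or 0.680-fold to 1.27-fold. No difference in the transcript of the factor itself was detectable. Among other STAT genes, Stat5b, which carries GM-CSF signals, fell 2.53-fold, from 330 ± 38.3 to 131 ± 14.97 CPM (adjusted p = 0.0012). Stat6, named after its values were seen, fell from 648 to 401 CPM (adjusted p = 0.021). Stat2 was the most abundant member that was not called, with 38.7 ± 4.52 CPM in liver against 45.6 ± 14.9 in blood.

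Among the feedback inhibitors, Socs3 was by far the most abundant and was the only one of the 4 with a negative log2 fold change. Its protein binds gp130, the G-CSF receptor and JAKs and limits STAT3 signalling. Socs3, on chromosome 11 from 117966079 to 117970047, had 269, 285 and 271 CPM in liver and 520, 1008 and 321 CPM in blood. The liver libraries were nearly equal, with a coefficient of variation of 3.24%, while the blood libraries spread widely, with 57.4%, and the lowest blood value was only a little above the liver values. Socs3 fell by 1.17 ± 0.37 on the log2 scale (SE, adjusted p = 0.038). The call was lost without liver 1, liver 2, liver 3 or blood 2, with adjusted p-values of 0.11, 0.0929, 0.11 and 0.088, and the log2 fold change was -0.64 without blood 2 and -1.53 without blood 3. The order blood 3, blood 1, blood 2 was also that of B and plasma cell markers there, which summed to 51.4, 116 and 234 CPM over 7 genes, against 60.8 to 78.0 CPM in liver. In blood these markers had Jchain at 0 throughout. Their part in the Socs3 values was not tested.

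Socs1, which inhibits JAK kinases directly and restrains interferon signals, lies on chromosome 16 from 10782240 to 10785536. It had 17.95, 13.7 and 4.57 CPM in liver and 3.74, 5.34 and 5.37 CPM in blood. Liver 1 and 2 lay above all blood libraries, but liver 3 fell within their range. The log2 fold change was 1.32 ± 0.48 (SE) and did not pass the test (adjusted p = 0.059). Without liver 3 it was 1.71, with an adjusted p of 0.00949. Liver 3 also had the highest hepatocyte marker sum, with or without Trf, and liver 1, where Socs1 was highest, the lowest. The part of those cells in the Socs1 value was not tested.

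Socs2 and Cish are the members of the family best known as targets of STAT5. Socs2, on chromosome 10 from 95385362 to 95417180, had 16, 13 and 35 counts in liver 1, 2 and 3 and 0 in each blood library. These are 1.04, 0.783 and 2.25 CPM in liver, while 3 counts, the limit that a count of 0 allows, correspond to 0.201 to 0.263 CPM in the blood libraries. Against 3 counts over the blood group, Socs2 was at least 18.1-fold higher in liver (adjusted p = 0.0068). Socs2 is also a growth hormone target in hepatocytes, and liver 3, its highest library, had the highest sums of hepatocyte, Kupffer cell, monocyte and endothelial markers. The order of liver 2, liver 1 and liver 3 was shared with the sums for Kupffer cells and macrophages (604, 773 and 957 CPM), monocytes (800, 958 and 1230 CPM) and endothelium (22.7, 39.8 and 50.6 CPM), but not with that for hepatocytes (305, 271 and 496 CPM, or 130, 16.5 and 241 CPM without Trf). That order of the monocyte sum rests on Fn1, which alone gave 573, 542 and 856 CPM in liver 1, 2 and 3. Fn1, Ccr2 and F13a1 were highest in liver 3, but Klf4, Cx3cr1, Ms4a6c and Ly6c2 in liver 1, a look taken after the values were seen. Ghr, the growth hormone receptor gene, was not tested, with 52 liver counts and 4 blood counts in all. Whether the Socs2 reads came from neutrophils was not tested.

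Cish, on chromosome 9 from 107296026 to 107302784, encodes CIS, which competes with STAT5 at receptors. It had 7.77, 4.76 and 5.15 CPM in liver and 2.80, 2.28 and 0.201 CPM in blood. Every liver library was above every blood library, but the log2 fold change of 1.75 ± 0.71 (SE) did not pass the test (adjusted p = 0.089, 95% interval 0.15 to 3.35). Blood 3 held only 3 Cish counts, and without it the value was 1.16. Of the Cish counts, 2 libraries had a fractional part that summed to a whole number with that of the antisense row Gm17041, which held at most 17.2% of the sum.

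Pim1 was the most abundant of the 10 genes in liver and had the largest fold of the called genes with reads in both groups. PIM1 phosphorylates BAD, the cell cycle inhibitors p21 and p27 and other proteins and supports survival of myeloid cells. Pim1, on chromosome 17 from 29490753 to 29496112, had 3931, 3044 and 2103 CPM in liver and 617, 910 and 350 CPM in blood. The lowest liver library was above the highest blood library, although both groups spread, with coefficients of variation of 30.2% and 44.7%. Pim1 rose by 2.27 ± 0.38 on the log2 scale (SE, adjusted p = 0.0026), with a 95% interval of 1.42 to 3.12. Leaving out any single library gave 1.94 to 2.62. In blood, Pim1 had the same order of libraries as Socs3, with blood 2 highest and blood 3 lowest, although the genes differed in opposite directions between the groups. The row of the antisense gene Gm26885 shares 488 exonic bases with Pim1. In all 6 libraries their fractional counts summed to whole numbers within 0.01, and Gm26885 held at most 4.63% of the sum. Counting both together, which was chosen after seeing the data, changed no call of the 10 genes.

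Pim3, on chromosome 15 from 88862186 to 88865726, is a close relative with overlapping substrates. It had 78.7, 42.2 and 75.4 CPM in liver and 23.4, 24.7 and 20.1 CPM in blood. The groups did not overlap, and Pim3 rose by 1.52 ± 0.26 on the log2 scale (SE, adjusted p = 0.0028), with 1.36 to 1.75 when single libraries were left out. Pim2, on chromosome X from 7878262 to 7883432, is the family member usually prominent in lymphoid cells. It was low in both groups, with 4.83, 2.65 and 3.73 CPM in liver and 3.45, 3.24 and 2.42 CPM in blood. These values overlapped, and the log2 fold change of 0.30 did not pass the test (adjusted p = 0.62). Its 95% interval of -0.64 to 1.24 is wide, reaching 2.36-fold, with 121 counts over the blood libraries.

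**Figure D2:**
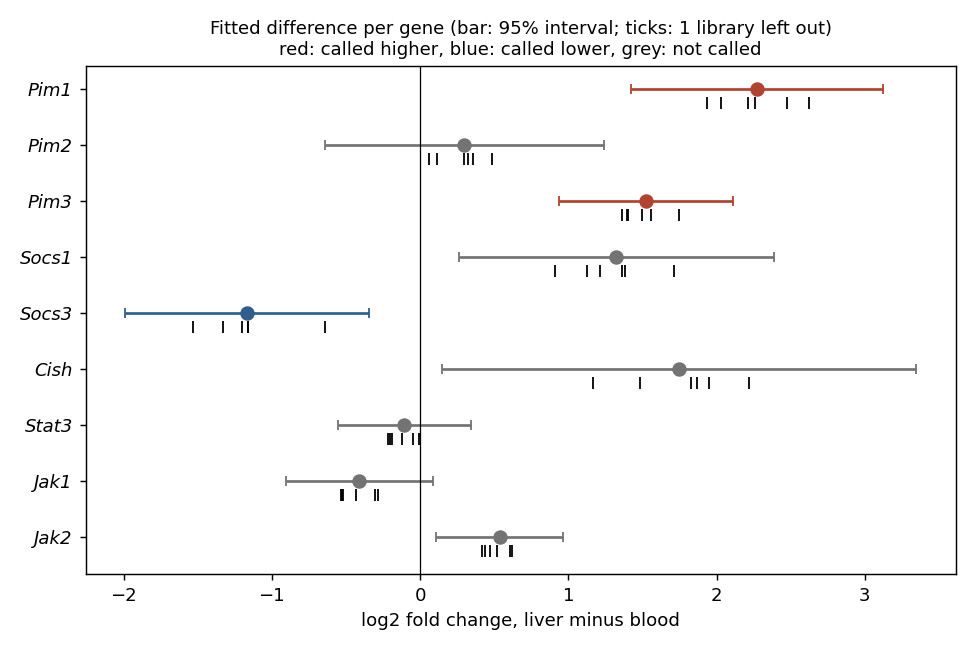
Log2 fold change, liver minus blood, for 9 of the 10 genes (Socs2, at 0 in blood, is left out), with 95% intervals and, as black ticks, the values with each library left out in turn. Pim1 at 2.27 and Pim3 at 1.52 keep their sign and distance from 0, while the ticks of Socs3 run from -1.53 to -0.64.

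Ratios within a library do not depend on its scaling. The log2 ratio of Pim1 over Pim2 was 9.66, 10.2 and 9.13 in liver and 7.47, 8.11 and 7.16 in blood, so Pim1 rose over Pim2 in all liver libraries, by 2.06. Pim2 over Pim3 was lower in liver by 1.20, also without overlap. Pim1 over Pim3 was 5.64, 6.17 and 4.80 in liver and 4.72, 5.20 and 4.12 in blood. Those values overlapped, so the larger change of Pim1 was not told apart from that of Pim3 (difference 0.86, exact permutation p = 0.20). Socs1 over Socs3 was higher in liver by 2.13, Socs3 over Cish lower by 3.33 and Socs3 over Stat3 lower by 0.90, each without overlap between the groups. Some gaps were narrow, that of Socs1 over Socs3 with -5.88 in liver 3 against -5.89 in blood 3, and that of Socs3 over Stat3 with -0.793 against -0.788. All 6 ratios without overlap, that of Jak1 over Jak2 included, reached p = 0.10 by an exact two-sided permutation test, the smallest possible, and 0.13 adjusted over 8 ratios. The ratio of Socs2 over Cish rests on added counts of 0.5 in blood and is not read.

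**Figure D3:**
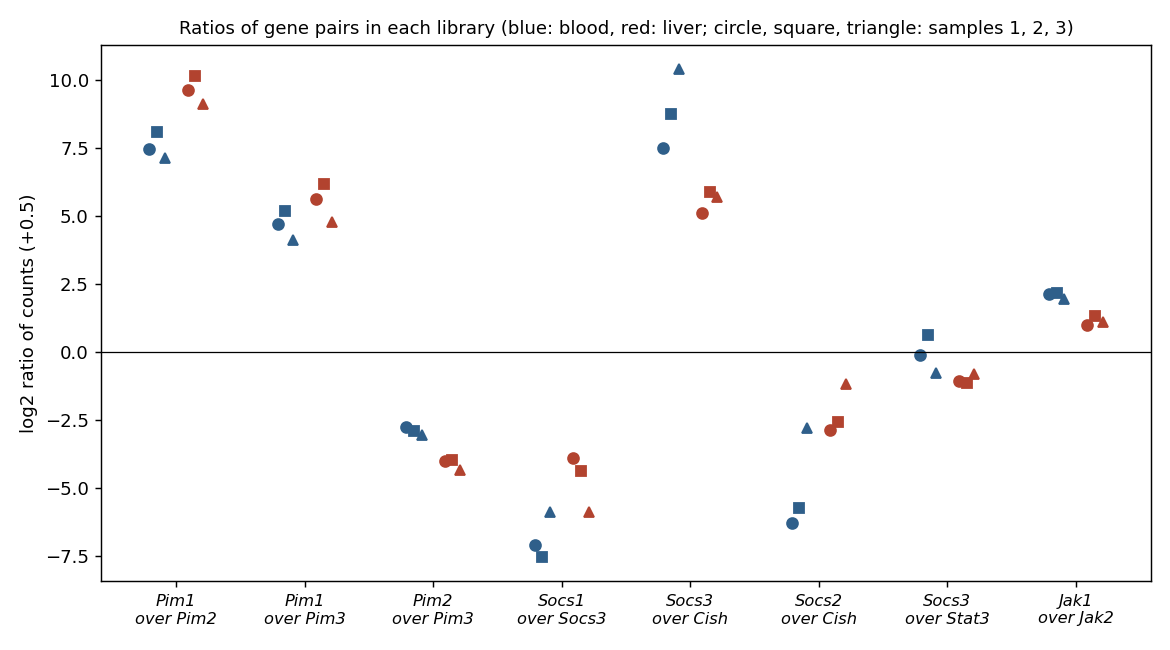
Log2 ratio of the counts of 2 genes in each library, with 0.5 added to each count, for 8 pairs. Blood libraries are blue and liver libraries red; the groups separate for 6 pairs and overlap for Pim1 over Pim3 and Socs2 over Cish.

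Receptors that feed this pathway moved both ways. Of 20 tested genes of a list of 25, 9 rose, 4 fell and 7 did not pass the test, with a median log2 fold change of 0.58. Il6st, encoding the shared chain gp130, had 34.7, 19.0 and 41.7 CPM in liver and 4.31, 2.80 and 0.940 CPM in blood, an 11.9-fold rise (adjusted p = 0.0020). In liver its order was that of the Kupffer cell, monocyte and endothelial marker sums given above, that of the monocytes resting on Fn1. The part of those cells was not tested. Il6ra, the interleukin 6 binding chain, fell 2.20-fold, from 428 ± 36.8 to 194 ± 22.8 CPM (adjusted p = 0.0024). Il2rg, the common gamma chain, rose 4.49-fold to 71.8 ± 19.3 CPM, with the call lost without liver 1 or blood 2 (adjusted p = 0.055 and 0.053). Csf3r, the G-CSF receptor and the most abundant receptor of the list, had 3393, 4598 and 2181 CPM in liver and 7214, 8369 and 5333 CPM in blood, a fall of 1.04 on the log2 scale (adjusted p = 0.035). Omitting liver 1, liver 3, blood 1 or blood 2 each ended that call, at adjusted p-values of 0.0931, 0.0733, 0.075 and 0.089. Csf2rb, the signalling chain for GM-CSF, had 858 ± 181 and 888 ± 165 CPM and was not called. Without liver 1 only 3 receptors were called higher, and 2 were called lower without liver 1, liver 3 or blood 2. With both liver 3 and blood 1 left out, 1 receptor was called lower.

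Only 8 of 21 ligand genes had enough counts to be tested, and 4 were called higher, 1 was called lower and 3 did not pass. Across all tested genes, 17.4% were called higher and 14.2% lower. The 4 higher ones, Il6, Il10, Lif and Il23a, passed the count filter only through their liver counts, so the filter favoured a rise in them all. The list's median was 3.00, or 2.87 with Il6 and Il23a at their lower bounds. Lif, a gp130 ligand, had 30.7, 20.1 and 13.1 CPM in liver and 0.0719, 1.49 and 0.403 CPM in blood, a rise of 5.07 ± 0.78 on the log2 scale (SE, adjusted p = 0.0026), or 6.39 without blood 2. Il23a was at 0 in blood and at least 313-fold higher in liver. Il6 and Il10, named after their values were seen, had 100 and 351 counts over the liver libraries and 0 and 3 over the blood libraries. Il6 was thus at least 28.2-fold higher against 3 counts over the blood group. Osm, encoding oncostatin M, was the most abundant ligand and was not called, at 246 ± 50.7 and 265 ± 145 CPM. Its blood libraries took the order seen for Socs3 and Pim1, with 271, 407 and 117 CPM in blood 1, 2 and 3. Il15 fell 2.29-fold (adjusted p = 0.015), a call lost without liver 1 (adjusted p = 0.054). Csf3, which encodes G-CSF, was not tested, with 121 liver counts and 0 blood counts in all.

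Other brakes on the pathway were read from a list of 20 genes. Of these, 1 rose, 5 fell and 14 did not pass, with a median of -0.10, against 17.4% higher and 14.2% lower among all tested genes. Without liver 1, or without both liver 3 and blood 1, 3 were called lower, and 2 were called higher without liver 2, without blood 1, without both liver 3 and blood 1, without robust estimation and by DESeq2 and limma voom. Ptpn2, a phosphatase for JAKs and STATs, rose 2.51-fold, from 24.6 ± 1.97 to 61.8 ± 13.3 CPM (adjusted p = 0.0024). Pias3, named for its inhibition of activated STAT3, fell 3.03-fold, from 42.8 ± 2.81 to 14.1 ± 1.34 CPM (adjusted p = 0.00085), and Ptprc, encoding the phosphatase CD45, fell 2.16-fold (adjusted p = 0.015, and 0.059 without liver 1). The others that fell were Ptpn6, Sh2b3 and Cbl, named after their values were seen. Ptpn1, the most abundant gene that was not called, had 590 ± 87.0 and 724 ± 63.4 CPM. Socs4, Socs5, Socs6 and Socs7, the SOCS genes outside the group described here, did not pass the test, with log2 fold changes from -0.04 to 0.47.

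Target genes of the STATs moved both ways, as did all tested genes, of which 17.4% were called higher and 14.2% lower. Of 21 tested STAT3 targets of 22, 6 rose, 3 fell and 12 did not pass, with a median of 0.37. Among the 6, Il10 and Saa3, with 3 and 12 blood counts, passed the count filter only through their liver counts, so the filter favoured a rise in both. Vegfa, an angiogenic factor, rose 8.45-fold and Il1rn, the interleukin 1 receptor antagonist, 4.21-fold, from 225 ± 101 to 948 ± 306 CPM (adjusted p = 0.00035 and 0.0040). Cebpd, a transcription factor gene, fell 3.59-fold, from 323 ± 67.3 to 89.7 ± 30.9 CPM (adjusted p = 0.0015). Lcn2, encoding lipocalin 2, fell 2.56-fold (adjusted p = 0.029), a call lost without liver 2, blood 1 or blood 2 (adjusted p = 0.066, 0.067 and 0.076). Mcl1, a survival gene and the most abundant of those not called, went from 3065 ± 751 CPM in blood to 1884 ± 208 in liver, a log2 fold change of -0.70 (adjusted p = 0.057). It was called by DESeq2 and limma voom, with no low-count filter and with the replicate block. In place of 3 STAT3 targets, 6 were called lower with no low-count filter, and 5 by limma voom and with the replicate block.

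Of 9 tested STAT5 targets of 12, 2 rose, 1 fell and 6 did not pass, with a median of 0.37. Dusp5, a MAP kinase phosphatase gene, rose 9.71-fold, from 50.8 ± 29.4 to 493 ± 57.5 CPM (adjusted p = 0.00074), while Bcl6, a repressor that is on both lists, fell 2.50-fold (adjusted p = 0.0023). DESeq2, the fit with no low-count filter and the fit without liver 2 called 4 STAT5 targets higher. Among all tested genes the median was 0.04, with 17.4% called higher and 14.2% lower, and these lists share Bcl6, Bcl2l1, Ccnd1, Il10, Osm, Myc and other genes with each other and with the ligand and PIM lists.

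**Figure D4:**
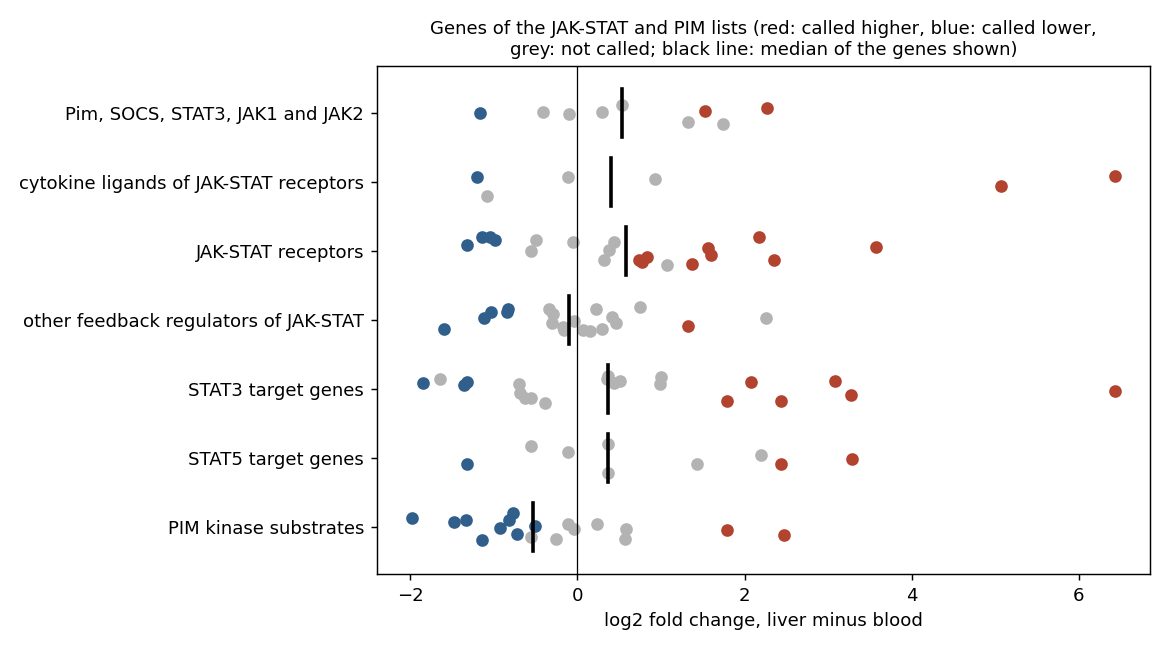
Log2 fold changes, liver minus blood, of the 9 genes with blood counts and of the tested genes with blood counts in 6 lists, 1 point per gene, red for called higher, blue for called lower and grey for not called, with black lines at the medians of the points shown, which for the ligands leave out Il6 and Il23a, at 0 in blood. PIM substrates lie mostly below 0, while receptors and STAT3 targets lie on both sides.

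Genes encoding PIM substrates included falls and rises. Of 18 tested genes of 19, 9 fell, 2 rose and 7 did not pass, with a median of -0.53. Over all tested genes, 14.2% were called lower and 17.4% higher. Cdkn1b, encoding the cell cycle inhibitor p27, fell 3.95-fold, from 521 ± 170 to 132 ± 13.1 CPM (adjusted p = 0.00084), and Eif4ebp1, a brake on translation, fell 2.78-fold, from 161 ± 32.0 to 58.1 ± 19.0 CPM (adjusted p = 0.0040). Cdkn1a, encoding p21, went the other way, from 25.6 ± 15.2 to 142 ± 103 CPM, a 5.57-fold rise (adjusted p = 0.041). That call was lost without any single library except blood 3 (adjusted p = 0.051 to 0.10) and with no low-count filter (0.17), and the log2 fold change was 1.69 without liver 1. Cxcr4, a chemokine receptor, was the most abundant substrate that was not called, with 722 ± 85.0 in liver against 486 ± 94.5 CPM in blood (adjusted p = 0.072). Without liver 3 and blood 1 together, 4 substrates were called lower. Neither rise was called without liver 1, liver 2, liver 3 or blood 2.

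The genes whose profile over the 6 libraries lay closest to that of Pim1, Socs3 and Stat3 were found among 6751 tested genes of at least 10 CPM, by the root mean square difference of mean-centred log2 CPM. For Pim1 these were Slc3a2, Slc7a1 and Ifi30, at differences of 0.12, 0.13 and 0.17. Slc3a2 had 553, 466 and 310 CPM in liver and 84.2, 106 and 50.1 CPM in blood, in the same order of libraries as Pim1 within each group. For Socs3 they were Casp1, AC154780.1 and Med20, at 0.18, 0.20 and 0.21. Casp1 had 5.94, 5.36 and 7.27 CPM in liver and 13.2, 20.9 and 8.12 CPM in blood, with blood 2 highest as for Socs3, and its call (adjusted p = 0.038) held only without blood 3 among the single omissions (the others gave adjusted p = 0.058 to 0.14), as was that of AC154780.1 (0.066 to 0.16). For Stat3 they were Arf1, Arid4b and Mtmr6, at 0.02, 0.04 and 0.05, with Arf1 at 356, 387 and 289 CPM in liver and 359, 414 and 341 CPM in blood.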

How the data were processed

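The authors deposited unscaled expected counts, 1 table per library. Per the submitters' processing notes, FastQC 0.11.5, STAR, RSEM, limma and GRCm38 were used. The sources used here do not give other versions, filters or the strand setting, so antisense overlaps cannot be resolved. Per the labels' protocols, libraries came from a low-input stranded total-RNA kit. Positions and exon lengths were taken from GENCODE M21 (GRCm38), in which 98.9% of rows were found by identifier.

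Counts were rounded, filtered with filterByExpr (minimum count 10, minimum total 15), scaled by TMM and tested with edgeR 4.0.16 (R 4.3.3; robust quasi-likelihood F test, no covariates). Adjusted p-values are Benjamini-Hochberg over 13458 genes, with calls under 0.05. No 2 libraries of a group agreed within counting noise (chi-square over degrees of freedom 52.1 to 79.0), so none was treated as a repeat deposit, which does not show separate animals. Floors of 3 counts cover counting error only. Named genes are the 10, up to 2 largest rises and falls per list with at least 10 CPM, the most abundant uncalled gene per list and the nearest profiles. Members and lists were chosen with earlier results of these data known. In counts simulated from the fitted dispersions of these libraries, the median estimate for the largest planted changes lay close to their size. The share of planted changes called is not given here, and mixed cell content was not simulated. DESeq2 1.42.0 and limma 3.58.1 served as alternatives. The results of 1 gene and its target list are not reported here.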

Additional observations from a re-analysis of the deposited data

How the results depend on the processing

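The test was repeated under 15 other settings of scaling, tool, filter, dispersion, library size, replicate block, omitted libraries and added antisense counts, the last chosen after seeing the data. Pim1 and Pim3 were called higher in each of them, as was Socs2, which passed the count filter only through its liver counts. In place of 3 genes called higher, DESeq2 and the fit with no low-count filter called 5, adding Socs1 and Cish, limma voom added Cish, and leaving out single libraries gave 3 to 4. Socs3, the 1 gene called lower, gave a count of 0 under limma voom, under the replicate block and without both liver 3 and blood 1, and 0 to 1 when single libraries were left out, although 1 of the 10 genes, or 2 with the block, had a negative change at an unadjusted p under 0.05. Without both liver 3 and blood 1, 1195 genes in all were called lower, against 1916. Whether the sample numbers pair the libraries is not settled by these data, since deviations from means of 3 libraries cannot decide it. The correlations of deviations for the same numbers were 0.04, 0.14 and 0.01. Liver 1 and liver 2 correlated best with the blood library of their own number, and liver 3 with blood 1 (0.12). With the replicate block 4634 genes were called, against 4252, Socs3 had an adjusted p of 0.053 and Jak2 one of 0.032. Some uncalled genes changed sign. The log2 fold change of Osm was 0.046 under limma voom, 0.049 with the replicate block, 0.016 without liver 2 and 0.32 without blood 2, with a lowest value of -0.52 among single omissions. That of Csf2rb was 0.11 without liver 3, 0.087 without blood 2 and 0.028 without both liver 3 and blood 1, with a lowest of -0.19. That of Stat2 was 0.038 without blood 2, with a lowest of -0.43, and that of Mtmr6 was 0.066 without liver 3 and 0.0044 without blood 2, with a lowest of -0.22. The causes were not tested. Pim2, Socs2 and Cish rest on few counts, 121, 0 and 68 over the blood libraries.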
